A study of Homo sapiens with 8 samples.

Results

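The transcripts of 10 kinesin motors of mitosis and cytokinesis were followed in HepG2 cells exposed to plastic-related compounds. KIF11, KIFC1, KIF18A, KIF18B, KIF2C, KIF4A, KIF23, KIF20A, KIF20B and KIF14 were chosen by symbol, and each matched 1 Ensembl gene of the 60230 in the count table. All 10 were among the 13404 genes with enough counts for a test. HepG2 is a human hepatoma line, and every sample, the controls included, was the same derivative that overexpresses cytochrome P450 3A4 (CYP3A4), a major drug-metabolising enzyme. It is a cancer line grown in culture under blasticidin, not liver tissue. Control cells received the solvent DMSO, and the other cells received compound 4, compound 5 or compound 6 for 24 h, each at its own IC50, the concentration that lowered viability by 50% in the study's own assay, which ran longer than 24 h, so viability at the time of RNA sampling is not given by it. The study names all of them as plastic antioxidants made of a pair of linked phenol rings. Compounds 4 and 6 share a methylene bridge and a methyl group on each ring, and differ in the bulky group, which is tert-butyl in compound 4 and cyclohexyl in compound 6. Compound 5 carries tert-butyl groups at both ring positions and a bridge with an added methyl group. Since doses were set by IC50, the 4 groups were compared as dosed and not at equal concentrations. Each group held 2 samples, labelled day 1 and day 2 and called replicates 1 and 2 here.

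Kinesins are motors that use ATP to move along microtubules or to take their ends apart. In a dividing cell some of them push the spindle poles apart, others set the length of the microtubules that hold the chromosomes, and others build the midzone and midbody where the cells separate. Their genes are known to be transcribed mainly in G2 and mitosis, so that in a tissue they mark dividing cells. In RNA from whole cultures, a smaller share of cells in mitosis and less transcript per dividing cell cannot be told apart. The study's flow cytometry, also at the IC50 and 24 h, reported a larger share of cells in G2/M under each compound than in DMSO. It gave G2 and mitosis together, and its part in these transcript levels was not tested.

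The count totals per sample ranged from 9472261 to 13308975, and levels are given as CPM, counts scaled to a common library size after TMM scaling, a factor that balances the libraries. CYP3A4 was at 198 to 207 CPM in DMSO, 216 to 287 under compound 4, 371 to 421 under compound 5 and 170 to 171 under compound 6, and the part of these levels in the results was not tested. All 10 hepatocyte markers examined, such as ALB and AFP, were expressed, with summed levels of 42600 to 44800 CPM in DMSO, 33200 to 34000 under compound 4, 35000 to 35100 under compound 5 and 34400 to 41000 under compound 6. Under compound 4, AFP (-0.63), APOA1 (-0.66) and TF (-0.56) were called lower and TTR (0.66) higher. Under compound 5, APOA1 (-0.78), AFP (-0.68), AHSG (-0.61) and TF (-0.40) were called lower, and under compound 6, APOA1 (-0.74) and TF (-0.55), as log2 fold changes against DMSO by the edgeR test used for the kinesins below. Of 10 markers of blood, endothelial, fibroblast and biliary cells, 2 (CD68 and PDGFRB) passed the count filter. The list's summed level was 29.7 to 42.3 CPM in DMSO, 65.6 to 66.6 under compound 4, 39.1 to 45 under compound 5 and 54.6 to 56.5 under compound 6, and PTPRC and CD3E had 0 counts in every sample. PDGFRB, a receptor of fibroblasts and pericytes, and CD68, a macrophage marker, were called higher under compound 4, by 1.80 and 0.80 (edgeR adjusted p = 0.00864 and 0.0079), and neither was called under compounds 5 and 6. The part of these marker levels in the results was not tested. Nothing in the sources says that the 2 samples of a group were separate cultures, so p-values measure only the spread between these samples.

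Promoter windows of the 10 genes, taken from RefSeq on GRCh38.p14 from 250 bases before to 50 bases after the annotated start, were searched for 2 short words that many genes of late cell cycle phases carry. CHR elements, searched as TTTGAA and TTCGAA, are known sites of the MuvB complex, and CCAAT is the known word of the factor NF-Y. The search covered both strands. A CHR word was found in 8 of the 10 windows, against 16.4% of 35116 windows over all genes and 11.9% of 14476 windows of tested genes. CCAAT was found in 9 of 10, against 34.6% and 35.2%. The 8 windows with a CHR word also held CCAAT, against 6.38% and 4.83% with both words. In each of these 8 the CHR word lay downstream of every CCAAT, with 9 to 122 bases between their first letters. No share of other windows with this order is given, so the order cannot be called particular to these genes. KIF20A held 2 CCAAT words and no CHR word, and KIF2C held neither. A match is a description of the letters and not evidence that a factor binds. The 150 bases before the start are shown for 5 genes that cover these arrangements, 5′ to 3′ along the gene, with the CHR word or CCAAT (or their reverse complements TTCAAA and ATTGG) in capitals. KIF11 (chr10:92592980-92593129 on the plus strand) and KIF4A (chrX:70289954-70290103 on the plus strand) hold both words before the start. KIF18B (chr17:44947774-44947923 on the minus strand) and KIF14 (chr1:200620752-200620901 on the minus strand) show CCAAT here, their CHR word lying just after the start. KIF2C (chr1:44739687-44739836 on the plus strand) has no capitals.
KIF11 promoter: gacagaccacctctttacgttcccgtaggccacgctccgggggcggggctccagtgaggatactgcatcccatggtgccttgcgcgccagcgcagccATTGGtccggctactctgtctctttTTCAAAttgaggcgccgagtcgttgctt
KIF4A promoter: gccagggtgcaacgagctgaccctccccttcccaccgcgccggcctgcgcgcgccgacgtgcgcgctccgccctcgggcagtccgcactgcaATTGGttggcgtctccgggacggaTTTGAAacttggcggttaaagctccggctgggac
KIF18B promoter: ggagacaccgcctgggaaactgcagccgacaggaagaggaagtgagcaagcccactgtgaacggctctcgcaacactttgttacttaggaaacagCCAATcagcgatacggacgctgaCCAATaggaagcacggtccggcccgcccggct
KIF14 promoter: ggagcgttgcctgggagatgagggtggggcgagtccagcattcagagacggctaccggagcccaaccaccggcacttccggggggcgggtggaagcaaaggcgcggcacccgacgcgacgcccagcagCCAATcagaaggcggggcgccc
KIF2C promoter: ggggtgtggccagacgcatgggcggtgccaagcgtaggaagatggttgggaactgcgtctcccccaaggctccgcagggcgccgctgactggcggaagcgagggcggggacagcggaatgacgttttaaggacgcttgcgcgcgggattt

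**Figure D1:**
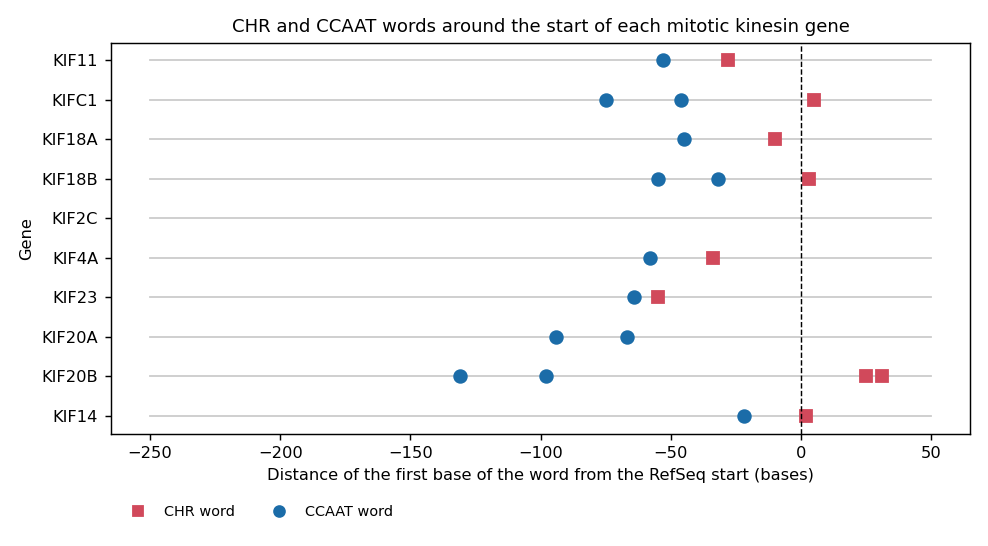
Position of CHR words (squares) and CCAAT words (circles) in the RefSeq promoter window of each gene, in bases from the annotated start (dashed line). In 8 of the 10 genes a CHR word lies to the right of every CCAAT word, KIF20A has 2 CCAAT words alone, and KIF2C has none.

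In DMSO cells, levels divided by transcript length were highest for KIF2C, at 32.6 and 33.3 CPM per kilobase in replicates 1 and 2. KIF20A (22 and 23.8) and KIFC1 (22.8 and 21.7) came next and overlapped each other. KIF4A followed at 16.3 and 17.8, then KIF11 at 13.2 and 14.5 and KIF23 at 11.8 and 13.2, whose replicates met at 13.2. KIF20B (8.5 and 9.69) and KIF18B (7.98 and 9.94) overlapped, KIF18A stood at 4.44 and 5.99, and KIF14 was lowest at 2.52 and 3.84. KIF14 therefore rested on the fewest counts per base of transcript, with 186 and 340 counts in the DMSO samples.

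All 10 kinesins were lower in compound 4 than in DMSO, and the fall passed the test for every one (edgeR's quasi-likelihood test, Benjamini-Hochberg adjusted p under 0.05 over all tested genes). Over all tested genes, 5.42% were called lower under compound 4. Under compound 5, 8 of the 10 were called lower, against 14.2% of all genes, and under compound 6 the count was also 8 of 10, against 1.6%. No kinesin was called higher, against 6.5%, 13.9% and 2.8% of all genes for compounds 4, 5 and 6. The median log2 fold change of the 10 was -1.04 under compound 4, -0.67 under compound 5 and -0.70 under compound 6, beside medians of 0, -0.03 and 0 over all tested genes. The summed level of the 10 transcripts was 529.7 and 583.6 CPM in DMSO, 251.6 and 258.9 under compound 4, 328.7 and 361.7 under compound 5 and 356.5 and 295.5 under compound 6. Both treated samples lay below both DMSO samples for 10 kinesins under compound 4 (27.1% of all genes), 9 under compound 5 (37.3%) and 10 under compound 6 (26.6%). The 3 comparisons use the same DMSO samples and are therefore not independent of each other. For compounds 5 and 6 the counts rested on single libraries. Leaving out DMSO replicate 2 left 7 kinesins called under compound 4 (KIF18A, KIF23 and KIF14 being lost), 4 under compound 5 and 0 under compound 6, where 1.06%, 6.7% and 0% of all genes were then called lower. For compound 5, leaving out its replicate 1 left 4, against 5.25% of all genes. For compound 6, leaving out DMSO replicate 1 left 2 and leaving out its own replicate 2 left 1, against 0.142% and 0.0671%. The calls over all genes for compound 6 thus fell in the same refits, from 590 in either direction to 90 without DMSO replicate 1, 1 without DMSO replicate 2 and 49 without compound 6 replicate 2. With those libraries removed, every fold change was still below 0 apart from KIF14 under compound 5, which stood at 0.03 without DMSO replicate 2.

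**Figure D2:**
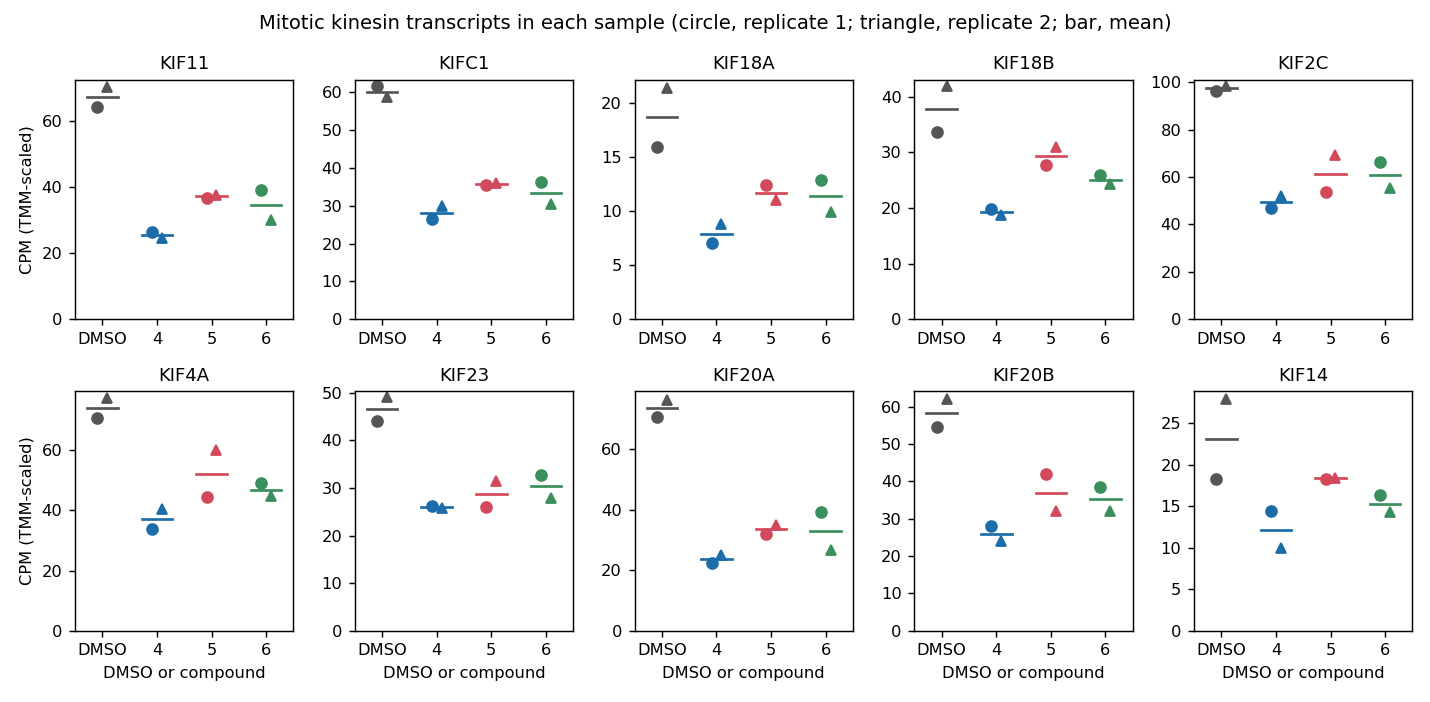
Level of each kinesin transcript (CPM after TMM scaling, axis from 0) in DMSO and compounds 4, 5 and 6; each symbol is a sample and the bar is the mean of 2. Compound 4 has the lowest mean in all 10 panels, and a treated sample reaches the DMSO range in KIF14 under compound 5, at 18.3 and 18.4 CPM against 18.3 and 27.9.

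Both spindle pole motors fell with all the compounds. KIF11 is the bipolar motor that slides antiparallel microtubules and pushes the poles apart, and is the target of the monastrol class of inhibitors. Its level was 64.2 and 70.3 CPM in the DMSO samples, 26.4 and 24.5 under compound 4, 36.8 and 37.6 under compound 5, and 39.3 and 30.2 under compound 6. No treated sample came near the DMSO samples, and the compound 4 samples lay below all others. The log2 fold change of KIF11 was -1.40 ± 0.14 (SE, n = 2 per group; edgeR adjusted p = 0.000344) under compound 4, -0.85 ± 0.13 (edgeR adjusted p = 0.00135) under compound 5 and -0.96 ± 0.14 (edgeR adjusted p = 0.00616) under compound 6. KIFC1 walks the opposite way, to the minus ends, and gathers microtubules and extra centrosomes into poles. KIFC1 stood at 61.6 and 58.8 CPM in DMSO, 26.4 and 29.9 under compound 4, 35.4 and 36.1 under compound 5, and 36.4 and 30.5 under compound 6. Its fold changes, -1.10 ± 0.12, -0.75 ± 0.12 and -0.85 ± 0.12 (edgeR adjusted p = 0.000758, 0.00167 and 0.0066), had the same order as those of KIF11.

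The motors that act on chromosomes and microtubule ends also fell under compound 4. KIF18A sits at the plus ends of kinetochore fibres and damps the movement of chromosomes at the metaphase plate. Its level was 15.9 and 21.4 CPM in DMSO, 7.01 and 8.81 under compound 4, 12.4 and 11 under compound 5, and 12.9 and 9.88 under compound 6. The DMSO replicates of KIF18A differed by 0.43 on the log2 scale. KIF18A fell by 1.23 ± 0.20 under compound 4 (edgeR adjusted p = 0.0038) and by 0.68 ± 0.20 under compound 5 (edgeR adjusted p = 0.0262), and its value of -0.72 ± 0.20 under compound 6 did not pass (edgeR adjusted p = 0.0674). KIF18B, which shortens astral microtubules, was at 33.7 and 41.9 CPM in DMSO, 19.8 and 18.8 under compound 4, 27.7 and 31 under compound 5, and 25.9 and 24.3 under compound 6. The samples of the 3 compounds did not overlap with each other for KIF18B, compound 4 being lowest and compound 5 nearest to DMSO. Its log2 fold changes were -0.97 ± 0.14 under compound 4 (edgeR adjusted p = 0.00208), -0.37 ± 0.14 under compound 5 (edgeR adjusted p = 0.0688) and -0.60 ± 0.14 under compound 6 (edgeR adjusted p = 0.0396). When the replicate numbers entered the fit as a block, KIF18B stood at -0.59 for compound 6 (edgeR adjusted p = 0.0505). No other kinesin's call against DMSO changed with the block.

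KIF2C, the centromere protein that takes microtubule ends apart and so helps to correct wrong attachments, was the most abundant of the 10. Its level was 96.3 and 98.5 CPM in DMSO, 46.9 and 52 under compound 4, 53.6 and 69.3 under compound 5, and 66.5 and 55.2 under compound 6. The DMSO replicates of KIF2C were close, and those of compound 5 were spread by 0.37 on the log2 scale. KIF2C fell by 0.98 ± 0.14 under compound 4, by 0.66 ± 0.14 under compound 5 and by 0.68 ± 0.14 under compound 6 (edgeR adjusted p = 0.00208, 0.00637 and 0.0262). KIF4A, a chromokinesin that binds chromosome arms and limits the length of midzone microtubules together with PRC1, stood at 70.7 and 77.3 CPM in DMSO. It was at 33.9 and 40.4 CPM under compound 4, 44.5 and 59.9 under compound 5, and 49 and 44.6 under compound 6. KIF4A fell by 0.99 ± 0.15, 0.50 ± 0.15 and 0.66 ± 0.15 on the log2 scale (edgeR adjusted p = 0.0026, 0.0291 and 0.0359). Of the 31-base words of the KIF4A transcripts, 26.6% also occur in KIF4B, a near copy. Reads could be split between them, though KIF4B was listed at 0 to 4 counts per sample against 396 to 941 for KIF4A.

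The midzone motors included the largest fall of the group. KIF20A carries the Aurora B complex to the central spindle in anaphase. KIF20A stood at 70.4 and 76.3 CPM in DMSO, 22.4 and 24.9 under compound 4, 32 and 34.9 under compound 5, and 39.1 and 26.7 under compound 6. The compound 4 samples were thus near 32.3% of the DMSO level. Its log2 fold change was -1.63 ± 0.17 under compound 4 (edgeR adjusted p = 0.000399), -1.13 ± 0.16 under compound 5 (edgeR adjusted p = 0.000816) and -1.16 ± 0.16 under compound 6 (edgeR adjusted p = 0.00576). Among the 10 kinesins, KIF20A had the lowest value with every compound. Its share of the counts of the 10 transcripts, which does not depend on the scaling between libraries, was 13.3% and 13.1% in DMSO, 8.91% and 9.61% under compound 4, 9.73% and 9.66% under compound 5, and 11% and 9.03% under compound 6. The Wilson 95% intervals of the DMSO samples, 12.4% to 14.2% and 12.3% to 13.9%, did not reach those of any treated sample, whose highest bound was 12.1%. These intervals cover counting error only. KIF20A was taken for this because its fall was the largest, so a lower share was fixed in advance and adds no support.

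KIF23, the motor part of centralspindlin, which bundles midzone microtubules with its partner RACGAP1, fell least under compound 4. Its level was 44.1 and 49.1 CPM in DMSO, 26.2 and 25.7 under compound 4, 26 and 31.5 under compound 5, and 32.7 and 27.9 under compound 6. The compound 4 and compound 5 samples of KIF23 overlapped, which no other kinesin showed. KIF23 fell by 0.84 ± 0.14, 0.69 ± 0.14 and 0.62 ± 0.14 under compounds 4, 5 and 6 (edgeR adjusted p = 0.00352, 0.00426 and 0.0317). KIF20B, a motor needed for the last steps of cytokinesis, stood at 54.5 and 62.2 CPM in DMSO, 28.1 and 24 under compound 4, 41.9 and 32 under compound 5, and 38.4 and 32 under compound 6. KIF20B fell by 1.16 ± 0.16, 0.66 ± 0.16 and 0.74 ± 0.16 (edgeR adjusted p = 0.0017, 0.0105 and 0.029). KIF14, which brings citron kinase to the midbody, was at 18.3 and 27.9 CPM in DMSO, 14.4 and 9.91 under compound 4, 18.3 and 18.4 under compound 5, and 16.3 and 14.3 under compound 6. It showed the largest gap between replicates of the 10, the DMSO samples differing by 0.61 and those of compound 4 by -0.53 on the log2 scale. KIF14 fell by 0.94 ± 0.22 under compound 4 (edgeR adjusted p = 0.0196), and stood at -0.60 without DMSO replicate 2 and at -0.68 without compound 4 replicate 2 (edgeR adjusted p = 0.207 and 0.0881). Its values of -0.34 ± 0.21 under compound 5 and -0.61 ± 0.22 under compound 6 did not pass (edgeR adjusted p = 0.252 and 0.146).

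Calls of single kinesins also depended on single libraries. Under compound 4, KIF18A and KIF23 stood at -1 and -0.76 without DMSO replicate 2 and no longer passed (edgeR adjusted p = 0.0608 and 0.0531). Under compound 5, KIF18A had -0.65 by DESeq2 (DESeq2 adjusted p = 0.0538), and it lost its call without DMSO replicate 2 (-0.42), its own replicate 1 (-0.74) or its own replicate 2 (-0.59). KIF4A lost its call under compound 5 without DMSO replicate 1 (-0.56), DMSO replicate 2 (-0.41) or compound 5 replicate 1 (-0.28). KIF2C lost it without DMSO replicate 2 (-0.62) or compound 5 replicate 1 (-0.46), KIF20B without DMSO replicate 2 (-0.54) or compound 5 replicate 2 (-0.48), and KIF23 without compound 5 replicate 1 (-0.54). The calls of KIF11, KIFC1 and KIF20A under compounds 4 and 5 passed with every library left out in turn. Under compound 6 each of the 8 calls was lost without at least 1 library. KIF20A was lost without DMSO replicate 2 (-1.10), and KIF11 without DMSO replicate 2 (-0.89) or compound 6 replicate 2 (-0.77). KIFC1, KIF2C, KIF23 and KIF20B were lost without DMSO replicate 1 (-0.82, -0.70, -0.70 and -0.83), DMSO replicate 2 (-0.88, -0.66, -0.54 and -0.63) or compound 6 replicate 2 (-0.72, -0.54, -0.50 and -0.60). KIF4A was lost without either DMSO sample (-0.73 and -0.59) or either compound 6 sample (-0.70 and -0.59), and KIF18B without any 1 DMSO, compound 5 or compound 6 sample (-0.74 to -0.42). KIF18A, which did not pass under compound 6, stood at -0.72 and -0.70 and passed without compound 4 replicate 1 or 2 (edgeR adjusted p = 0.0374 and 0.0415).

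**Figure D3:**
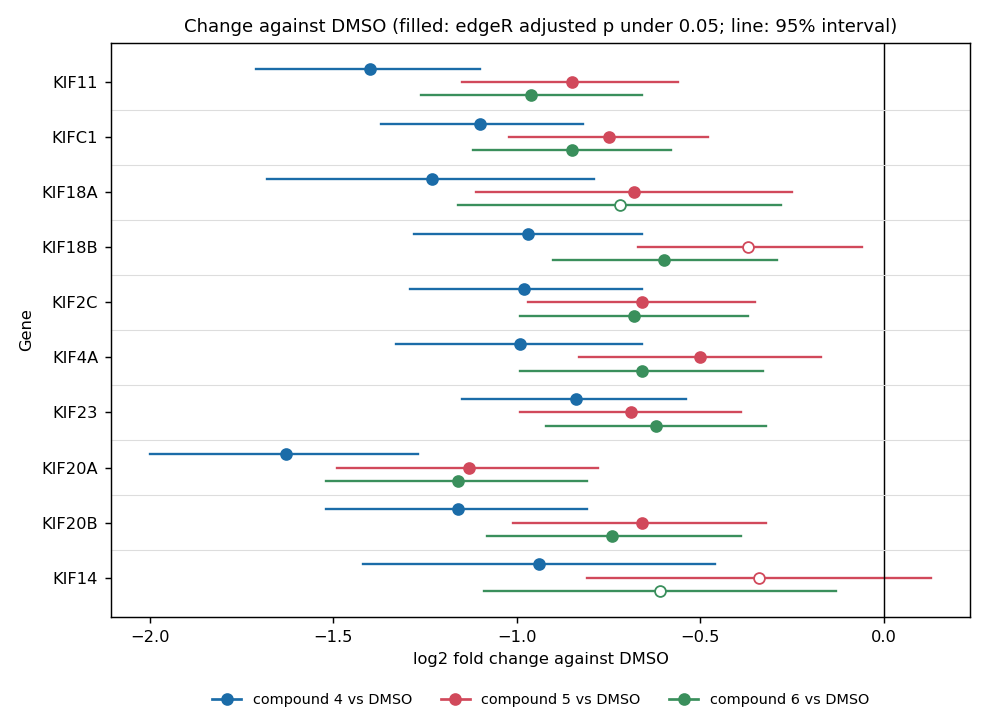
log2 fold change of each kinesin against DMSO with its 95% interval, for compounds 4, 5 and 6; filled points have an edgeR adjusted p under 0.05. All 30 points lie below 0, from -1.63 for KIF20A under compound 4 to -0.34 for KIF14 under compound 5, and the interval of KIF14 under compound 5 reaches above 0.

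The 2 replicates of a group were also set side by side over the 10 genes, whose levels move together and are not independent. In compound 6 cells, replicate 2 was lower than replicate 1 for 10 of 10 kinesins, by a median of -0.26 on the log2 scale, while 49.6% of all genes were lower. In DMSO cells, replicate 2 was lower for 1 and higher for 9, by a median of 0.14. It was lower for 5 and higher for 5 in compound 4 cells, and lower for 2 and higher for 8 in compound 5 cells. In compound 4 cells, the 10% of genes with the longest transcripts (7198 bases or more) were lower in replicate 2 by a median of -0.37, and the 10% with the shortest (1225 bases or less) were higher by 0.21. The same medians were 0.15 and -0.13 in DMSO cells, the opposite direction, -0.12 and 0.04 in compound 5 cells, and 0.06 and -0.06 in compound 6 cells. The column names of replicate 1 of compound 4 and of compound 5 carry the word merged and 2 numbers after the letter S, where those of the other samples carry 1. What these numbers mean is not given in the sources used here, and their part in these gaps was not tested. KIF14 and KIF20B, whose longest transcripts of 7274 and 6419 bases are the longest of the 10, were lower in compound 4 replicate 2 by -0.53 and -0.23. After a correction for length and GC content that was added after seeing the data, KIF14 stood at -0.81 and KIF20B at -1.06 under compound 4, both still called (edgeR adjusted p = 0.00994 and 0.000598), and all 10 kinesins were called lower under compounds 4 and 6. The shares of all genes called lower rose with that correction too, to 7.52% under compound 4 and 3.71% under compound 6.

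The compounds were then compared with each other over 3 pairs, each adjusted over all tested genes. KIF11 and KIF18B were higher under compound 5 than under compound 4, by 0.55 ± 0.14 and 0.60 ± 0.14 on the log2 scale (edgeR adjusted p = 0.0298 and 0.0232). All 10 kinesins had higher means under compound 5, with a median difference of 0.50, and these 2 of 10 passed the test, against 6.91% of all genes called higher. Both compound 5 samples exceeded both compound 4 samples for 9 kinesins, against 28.3% of all genes, with KIF23 overlapping. The difference of KIF23, 0.15, had a 95% interval of -0.16 to 0.46. KIF14 had a difference of 0.60 with an interval of 0.11 to 1.09 and did not pass (edgeR adjusted p = 0.0922). Leaving out compound 4 replicate 2, compound 5 replicate 1 or compound 5 replicate 2 left no kinesin called in this pair, against 2.25%, 0.53% and 0.612% of all genes called higher. Leaving out DMSO replicate 1 left 1 (4.26% of all genes), and leaving out compound 4 replicate 1 gave 4 (11.5%). With all samples, DESeq2 called 5 (9.58% of all genes), no low-count filter gave 7 (7.18%), and a minimum of 10 counts and the correction for length and GC content gave 4 each (8.73% and 9.2%). These 2 compounds differ in the tert-butyl and methyl groups on the rings and in the bridge.

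Compounds 4 and 6, which differ in tert-butyl against cyclohexyl, were not told apart by any kinesin. The means were lower under compound 4 for all 10, by -0.51 (KIF18A) to -0.22 (KIF23), and 0 passed the edgeR test, where 0.0224% of all genes were called lower and 0.0224% higher. Unadjusted p was under 0.05 for 5 of the 10, against 9.81% of all genes, and both compound 4 samples lay below both compound 6 samples for 9, against 17.7%. DESeq2 also called 0 in this pair. The intervals did not exclude sizeable differences: that of KIF18A ran from -0.98 to -0.05 and that of KIF11 from -0.75 to -0.14. Between compounds 5 and 6, the differences ran from -0.07 (KIF23) to 0.27 (KIF14). None of the 10 passed by edgeR or DESeq2, and 0 had an unadjusted p under 0.05 against 27.5% of all genes, while 4.76% of all genes were called higher and 5.16% lower under compound 5. The 95% interval of the difference was narrowest for KIFC1, at -0.18 to 0.38, and widest for KIF14, at -0.22 to 0.75. The values do not show that compounds 5 and 6 act alike on these genes.

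**Figure D4:**
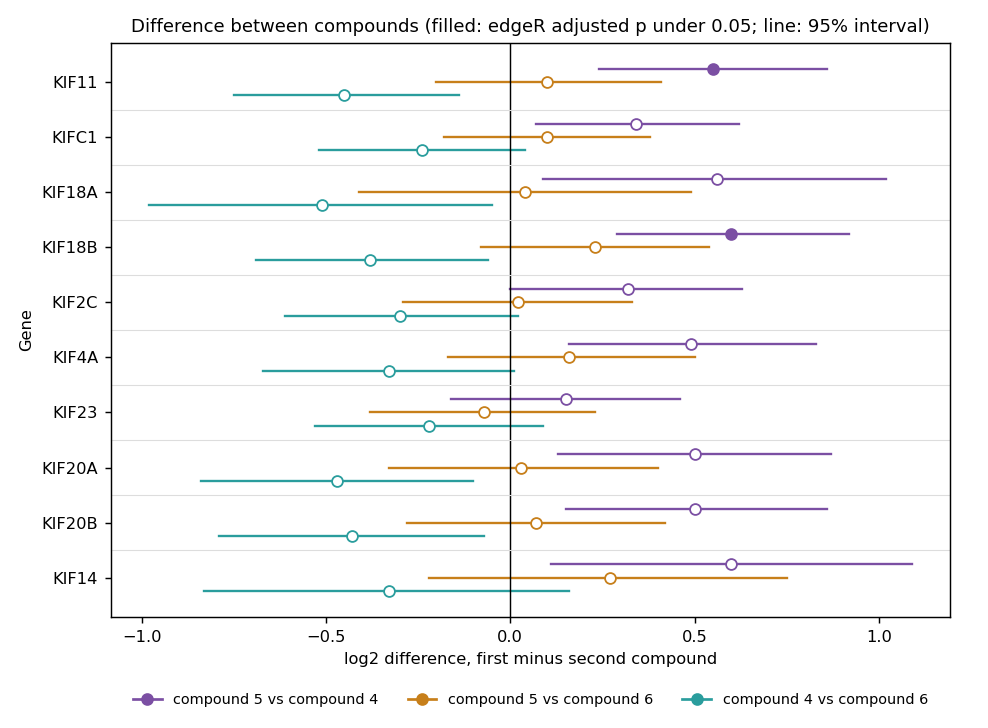
log2 difference between compounds for each kinesin (first minus second) with its 95% interval; filled points have an edgeR adjusted p under 0.05. KIF11 (0.55) and KIF18B (0.60) are filled for compound 5 against compound 4, the other points of that pair lie above 0 and those of compound 4 against compound 6 below 0.

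Around the 10 motors, other kinesins of cell division fell as well. Of 8 further division kinesins 6 were tested, and 3, 3 and 2 fell under compounds 4, 5 and 6, none rising, beside 5.42%, 14.2% and 1.6% of all genes called lower. For compound 5 all these calls were lost without DMSO replicate 2 or its own replicate 1. For compound 6 all were lost without DMSO replicate 2 or its own replicate 2, and some without DMSO replicate 1 or either compound 5 sample. Over all genes too, fewer were called lower in those refits. With the replicate block, 1 division kinesin was called for compound 6, where 1.34% of all genes were called lower. CENPE, the motor that brings chromosomes to the metaphase plate, was at 32.8 and 50.1 CPM in DMSO, 17.9 and 15.6 under compound 4, 33.5 and 34.8 under compound 5, and 25.6 and 24.8 under compound 6. CENPE fell by 1.31 under compound 4 and by 0.72 under compound 6 (edgeR adjusted p = 0.00184 and 0.0496) and had a value of -0.28 under compound 5 (edgeR adjusted p = 0.248). KIF15, a motor that can stand in for KIF11 at the spindle, fell by 1.15, 0.58 and 0.76 (edgeR adjusted p = 0.00149, 0.0145 and 0.0215). KIF22, a chromokinesin, fell by 0.74 under compound 4 and by 0.67 under compound 5, and KIF24, a centriolar kinesin at under 6 CPM, fell by 0.98 under compound 5. Of 30 genes of transport kinesins (heavy and light chains, with the associated proteins KIFAP3 and KIFBP), 24 were tested. None fell and 2 rose under compound 4, 1 fell and 7 rose under compound 5, and 1 rose under compound 6, with medians of 0.17, 0.16 and 0.10. Over all genes, 6.5%, 13.9% and 2.8% were called higher, so that the counts of transport kinesins under compounds 4 and 6 were near the background. With the replicate block, 4 transport kinesins were called for compound 4, where 5.17% of all genes were called lower and 6.39% higher. For compound 4 some transport calls were lost without DMSO replicate 1 and all without DMSO replicate 2. For compound 5 most were lost without DMSO replicate 1 or compound 5 replicate 1, and some without compound 5 replicate 2. For compound 6 the only call was lost without DMSO replicate 1, DMSO replicate 2 or compound 6 replicate 2. A call was gained for compound 6 without either compound 4 sample or compound 6 replicate 1. Over all genes too, fewer were called in the leave-one-out refits that lost calls and more in those that gained them. KIF3C, a subunit of the kinesin-2 family, rose by 0.72, 0.86 and 0.84 (edgeR adjusted p = 0.0299, 0.00639 and 0.0318), from 12.7 and 13 CPM in DMSO to 17.4 to 25.7 CPM in the treated samples. KLC2, a light chain of conventional kinesin, rose by 0.55 under compound 4 and by 0.59 under compound 5. KIF16B, a motor of early endosomes, and KIFC3, a minus-end motor of cell junctions, rose by 0.76 and 0.63 under compound 5. The 1 that fell, named after its value was seen, was the light chain KLC4, by 0.47.

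Genes for the partners, cargoes and regulators of these motors fell in large numbers. All 32 were tested, and 25, 22 and 18 were called lower under compounds 4, 5 and 6, none higher, with medians of -0.88, -0.61 and -0.65. The shares of all genes called lower were 5.42%, 14.2% and 1.6%, and those called higher 6.5%, 13.9% and 2.8%. For compound 6 all these calls were lost without DMSO replicate 1, without DMSO replicate 2 or without its own replicate 2. For compound 5 some were lost without DMSO replicate 2, and most without its own replicate 1. Over all genes too, fewer were called lower in those refits. DLGAP5, a spindle assembly factor, fell by 1.47, 1.08 and 0.90, from 45.3 and 51.8 CPM in DMSO to 17.4 and 17.6 under compound 4. AURKB, the kinase that KIF20A carries, fell by 1.25, 0.73 and 0.86, and BIRC5, its partner in the same complex, by 0.99, 0.78 and 0.86. NUSAP1, which bundles spindle microtubules, fell by 1.37, 0.91 and 0.84. HMMR, a spindle pole protein, fell by 1.20, 1.26 and 0.73. PSRC1, a microtubule plus-end protein, fell by 1.20 and 1.18 under compounds 4 and 5 and had a value of -0.66 under compound 6 (edgeR adjusted p = 0.0704). RACGAP1, the partner of KIF23, fell by 1.04, 0.68 and 0.70, and PRC1, the partner of KIF4A, by 0.76, 0.39 and 0.48. CIT, the citron kinase that KIF14 recruits, had values of -0.81, -0.45 and -0.45, none of which passed (edgeR adjusted p = 0.056, 0.185 and 0.331).

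Of 18 genes that control transcription of late cell cycle genes, at their promoters (such as subunits of MuvB and NF-Y, and FOXM1) or upstream (the CDK inhibitor CDKN1A), 5, 4 and 1 fell under compounds 4, 5 and 6 and none rose. These counts stood beside 5.42%, 14.2% and 1.6% of all genes called lower. The medians of this list were -0.24, -0.23 and -0.23, nearer to 0 than those of the motors. FOXM1, an activator of mitotic genes, was at 91.2 and 94.3 CPM in DMSO, 49.5 and 39.2 under compound 4, 69.3 and 69.2 under compound 5, and 63.6 and 46.2 under compound 6. It fell by 1.07 under compound 4 and by 0.76 under compound 6, and had a value of -0.42 under compound 5 (edgeR adjusted p = 0.0629). MYBL2, the activator that joins MuvB, fell by 0.80 under compound 4 and by 0.46 under compound 5, and had a value of -0.62 under compound 6 (edgeR adjusted p = 0.051). LIN54, the MuvB subunit known to bind the CHR word found in the promoters above, fell by 0.47 under compound 4 (edgeR adjusted p = 0.0266) and had values of -0.25 and -0.30 under compounds 5 and 6. RBL1, a pocket protein of the repressor form of the complex, fell by 0.68 under compound 4 and by 0.57 under compound 5, and TFDP1, a dimer partner of E2F factors, by 0.44 under compound 5. These counts moved with single libraries. For compound 5 all calls were lost without any one of the DMSO or compound 5 samples. For compound 4 most were lost without either DMSO sample, and some without compound 4 replicate 2 or either compound 5 sample. For compound 6 the only call was lost without DMSO replicate 1, DMSO replicate 2, compound 5 replicate 1 or compound 6 replicate 2. Calls were gained for compound 6 without either compound 4 sample or compound 6 replicate 1. Over all genes too, fewer were called lower in the refits that lost calls and more in those that gained them.

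The genes whose profile over the 8 samples was most like the mean profile of the 10 kinesins, by Pearson's r of log2 CPM, were DCAF7 (0.996), TPX2 (0.992), NEK2 (0.991), CCNF (0.99), DQX1 (0.989), PRC1 (0.988), KIF15 (0.988) and TOP2A (0.987). Of the 13404 tested genes, 79 had an r of 0.95 or more. These values are a description, since the 8 samples share groups and library scaling. TPX2 activates Aurora A at the spindle, NEK2 is a centrosome kinase, CCNF is a cyclin of G2 and TOP2A untangles sister chromatids. DCAF7 and DQX1 are not known as mitotic genes. DCAF7 had the highest r with a small range, from 181 CPM in DMSO replicate 2 to 136 in compound 4 replicate 2. Among the 10 kinesins themselves, r with their mean ran from 0.865 for KIF14 to 0.995 for KIF11.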

How the data were processed

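Strand-specific RNA-seq libraries (NEBNext Ultra II Directional) were made by the study from mRNA of 8 samples. The authors computed estimated counts with Salmon 1.5.0 against GENCODE 38 (GRCh38) and summed them per gene with tximeta. The deposited expected counts were whole numbers and were used without further rounding. Here edgeR 4.0.16 (R 4.3.3) was run on the whole table: filterByExpr, TMM scaling, glmQLFit and glmQLFTest over the 4 groups, with Benjamini-Hochberg adjustment over 13404 genes at 0.05. SE and 95% intervals come from that fit. CPM are TMM-scaled. A count of 3, the limit that 0 counts allows, is 0.225 to 0.317 CPM. Transcript lengths, shared 31-base words and gene positions came from GENCODE 29, and promoters from RefSeq (10 of 10 matched). Symbols were assigned by Ensembl identifier to 60089 genes.

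The members and all lists were chosen with earlier results of these data known. All members are named; in other lists, for each compound, the 3 called genes with the largest change and genes named for their role. An exact permutation test of 2 against 2 samples cannot go below p = 0.333, so none is given. Replicate numbers follow the days in the labels, although exposure lasted 24 h in all samples. Samples of equal number had correlations of deviations from their group means of -0.083 to 0.16, and the block was an alternative. Other alternatives were DESeq2 1.42.0, other scalings and filters, each library left out, only the groups compared, a stricter threshold and, added after seeing the data, a lowess correction for length and GC. The edgeR step was tested on simulated data.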

Additional observations from a re-analysis of the deposited data

Results flagged for a closer look

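KIF11 and KIF18B differed between the responses to compound 5 and compound 4. KIF11, which pushes spindle poles apart, was 0.55 higher on the log2 scale with compound 5 (37.2 CPM against 25.5 CPM on average; edgeR adjusted p = 0.0298), and higher in both compound 5 samples than in both compound 4 samples. KIF18B, which shortens astral microtubules, was 0.60 higher (29.3 CPM against 19.3 CPM; edgeR adjusted p = 0.0232), again with no overlap of samples. Both differences were tested directly between the 2 treated groups. Over all alternatives that kept every sample, the KIF11 difference ran from 0.40 to 0.58 with adjusted p from 0.00221 to 0.0474, and that of KIF18B from 0.54 to 0.63 with adjusted p from 0.00165 to 0.0431. KIF11 lost its call without DMSO replicate 1, compound 4 replicate 2 or either compound 5 sample, at 0.51 to 0.58. KIF18B lost its call without compound 4 replicate 2 or either compound 5 sample, at 0.52 to 0.70. Groups of 2 samples are too small for a test of single outlying samples.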

How the results depend on the processing

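Against DMSO, the 30 values of the kinesins kept their direction in all 270 refits with every sample in place. KIF18A lost its call with compound 5 by DESeq2 (adjusted p = 0.0538) and KIF18B with compound 6 under the replicate block (adjusted p = 0.0505), and 7 refits gained a call. The block changed no other of these calls. At an adjusted p under 0.01, 5 kinesins were called with compound 5 and 3 with compound 6. The share of all genes called at 0.01 is not given, so these counts cannot be set against a background. For compound 5, upper-quartile and library-size scaling moved the median of all genes to -0.12 and -0.14, and the share of calls that were higher from 49.3% to 36.6% and 33.3%. The cause of these shifts was not tested. With 1 library left out, the lone sample of its group is assumed to vary like the others. The kinesins called then ranged from 7 to 10 with compound 4, 4 to 8 with compound 5, 0 to 9 with compound 6 and 0 to 4 between compounds 5 and 4. The median with compound 4 ranged from -1.16 to -0.98, and that between compounds 5 and 4 from 0.42 to 0.54. It was 0.41 after the lowess correction. Between compounds 5 and 4, DESeq2 called 5, no filter 7, and a minimum of 10 counts or the lowess correction 4, where 7.18% to 9.58% of all genes were called higher against 6.91% in the reported fit.

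Differences between compounds 5 and 6 were near 0. Upper-quartile and library-size scaling shift all genes of this pair alike, the median of all genes going from -0.02 to -0.10, so that values just above 0 had to turn sign: KIF18A stood at -0.04, KIF2C at -0.06, KIF20A at -0.05 and KIF20B at -0.01. With 1 library left out, the ranges were -0.06 to 0.30 for KIF11, -0.01 to 0.23 for KIFC1, -0.13 to 0.24 for KIF18A, -0.18 to 0.20 for KIF2C, -0.07 to 0.37 for KIF4A, -0.22 to 0.07 for KIF23, -0.21 to 0.33 for KIF20A and -0.12 to 0.26 for KIF20B. KIF14 for compound 5 against DMSO ranged from -0.61 to 0.03.

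Counts of genes called in the other lists moved too, and are given here for calls in either direction. In the reported fit, 5.42%, 14.2% and 1.6% of all genes were called lower with compounds 4, 5 and 6, and 6.5%, 13.9% and 2.8% higher. Without a low-count filter, transport kinesins had 4 called with compound 4 and 3 with compound 6, and G2/M regulators 4 with compound 6. Tubulins had 7 with compound 4 and 5 with compound 6, and dynein genes 1 with compound 6. Of the 22717 genes then tested, 4.72% were called lower and 5.25% higher with compound 4, and 2.61% and 3.73% with compound 6. After the lowess correction, transport kinesins had 4 and 2 called with compounds 4 and 6, and G2/M regulators 8 and 3 with compounds 5 and 6. Tubulins then had 5 with compound 6, and dynein genes 2 and 7 with compounds 4 and 5. Of all genes, that correction called 7.52% lower and 8.88% higher with compound 4. The shares were 15.6% and 18.8% with compound 5, and 3.71% and 5.16% with compound 6. Under the replicate block, division kinesins had 1 called with compound 6 and transport kinesins 4 with compound 4. The block called 1.34% of all genes lower and 2.38% higher with compound 6, and 5.17% and 6.39% with compound 4. Under RLE scaling, division kinesins had 1 called with compound 6, where 1.58% of all genes were called lower and 2.78% higher. For G2/M regulators with compound 5, upper-quartile scaling gave 8 and library size 9. Those scalings called 18.8% and 20.3% of all genes lower, and 10.8% and 10.1% higher. With compound 6, G2/M regulators had 3 by DESeq2, 2 by library size, 2 at 10 counts and 3 with only the groups compared. The shares of all genes called lower were 2.34%, 1.89%, 2.07% and 2.51%, and those called higher 3.71%, 2.46%, 3.65% and 3.65%. DESeq2 called 5 tubulins with compound 6, and the fit of only the groups compared called 1 transport kinesin with compound 4. The latter fit called 4.47% of all genes lower and 5.01% higher with compound 4. With each compound, the shares of all genes called lower and higher also moved between the leave-one-out refits. The ranges that follow therefore cannot be read as changes particular to these lists. Leave-one-out ranges were, with compounds 4, 5 and 6 in turn, 2 to 3, 0 to 4 and 0 to 3 for division kinesins, 0 to 3, 1 to 8 and 0 to 2 for transport kinesins, 19 to 26, 7 to 22 and 0 to 21 for partners, 1 to 6, 0 to 5 and 0 to 4 for G2/M regulators, 2 to 5, 4 to 6 and 0 to 5 for tubulins and 0 to 1, 2 to 5 and 0 for dynein genes.

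KIF18A and KIF14 had the fewest counts of the 10, with 161 and 186 in DMSO replicate 1.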

Other observations

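Of 13 genes of alpha and beta tubulins, the subunits of the microtubules that these motors use, and of gamma-tubulin and its complex, all were tested, and 3, 5 and 2 rose under compounds 4, 5 and 6, beside 6.5%, 13.9% and 2.8% of all genes called higher. The counts that fell were 1, 1 and 0, beside 5.42%, 14.2% and 1.6% called lower. TUBB6, a minor beta tubulin, was at 5.71 and 6 CPM in DMSO, 14.7 and 13.2 under compound 4, 15.3 and 14.8 under compound 5, and 9.38 and 11.9 under compound 6. No treated sample of TUBB6 overlapped with DMSO, and it rose by 1.25, 1.36 and 0.87 on the log2 scale (edgeR adjusted p = 0.00172, 0.000448 and 0.0249). TUBA4A, an alpha tubulin, rose by 0.92, 0.75 and 0.70 (edgeR adjusted p = 0.00122, 0.00131 and 0.012). TUBB2A rose by 0.81 and 0.77 under compounds 4 and 5, and TUBB2B, at under 10 CPM, by 1.16 under compound 5. The fifth that rose under compound 5, named after its value was seen, was TUBGCP3, a gamma-tubulin complex protein, by 0.36 (edgeR adjusted p = 0.0475). TUBB2A and TUBB2B are close copies that can share reads. The most abundant members, TUBB and TUBA1B, at 1560 and 1560 CPM and at 1150 and 1180 CPM in the DMSO samples, had values from -0.36 to -0.05, and none passed. TUBB4B fell by 0.40 under compound 4 and by 0.37 under compound 5. Under compound 6 all calls of this list were lost without DMSO replicate 1, without DMSO replicate 2 or without compound 6 replicate 2. Under compound 4 some were lost without DMSO replicate 2. More of the 13 were called under compound 6 without either compound 4 sample. Over all genes too, fewer were called in the refits that lost calls and more in those that gained them.

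Of 20 genes of dynein, the minus-end motor, of its activator dynactin and of their adaptors and regulators (SPDL1, NDEL1, BICD2 and PAFAH1B1), 1 fell under compound 4, 2 fell and 2 rose under compound 5, and none was called under compound 6. Beside the shares of all genes called lower (5.42%, 14.2% and 1.6%) and higher (6.5%, 13.9% and 2.8%), these counts are near the background. SPDL1, the adaptor that brings dynein to kinetochores, fell by 0.90 under compound 4 and by 0.68 under compound 5 (edgeR adjusted p = 0.0115 and 0.0194). NDEL1, a dynein regulator, had 43.2 and 45.5 CPM in the DMSO samples against 85.3 and 84.2 under compound 5, a rise of 0.93, and DYNLL1, a light chain, fell by 0.58. Under compound 6, edgeR and DESeq2 each called 0 of the 20, and 2 had an unadjusted p under 0.05. For compound 4 the call was lost without DMSO replicate 2. For compound 5 some calls were lost without DMSO replicate 2 or its own replicate 1. Over all genes too, fewer were called in those refits.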
